A study of Mus musculus with 5 samples.

Results

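Broad macroH2A1.2 domains were long stretches of chromatin in which regions bound by macroH2A1.2 in 4 immunoprecipitated samples ran together. They were chosen on the calls themselves: regions of all 4 samples were merged wherever they shared at least 1 bp, and merged regions of at least 30 kb on autosomes were kept. This gave 1977 domains out of 62927 merged regions, or 3.19% of the autosomal ones, and they held 99.5 Mb of the 472 Mb called on autosomes (21.1%). The number and length of the domains are therefore a description of the calls and were not tested.

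macroH2A1.2 is a splice form of macroH2A1, a histone H2A variant with a large globular macro domain joined to its histone part. It takes the place of ordinary H2A in part of the nucleosomes, is known for its enrichment on the inactive X chromosome and in other silent chromatin, and is typically laid down over long stretches rather than at sharp sites. The 3T3-L1 line was derived from mouse fibroblasts and turns into fat-storing adipocytes after hormonal induction.

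All cells expressed macroH2A1.2 fused to GFP from a lentivirus, and chromatin was immunoprecipitated with an anti-GFP antibody, so that the tagged protein alone was measured. Pre-adipocytes (2 replicates) were uninduced, and mature adipocytes (2 replicates) had been induced for 60 h with insulin at 10 µg/ml, dexamethasone at 0.25 µM and IBMX at 500 µM, and were then kept with insulin. A single library made without antibody was the control. Conditions follow the titles of the samples; the description given with each mature sample, against its title, names the state before differentiation, and that of the control names the antibody. The methods call the replicates biological but name no separate clones or cultures, so the p-values below measure the spread between these samples. No expression was measured here, and adipocyte markers could not check the labels. The paper reports that cells with macroH2A1.2-GFP held less lipid after differentiation than cells with GFP alone. The name mature adipocytes thus stands for the induced state and not for a measured degree of differentiation. In bulk chromatin, a larger share of cells carrying macroH2A1.2 at a locus and more of it per cell cannot be told apart.

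Values for 4 samples are given in the order pre-adipocyte replicates 1 and 2, then mature adipocyte replicates 1 and 2. The ChIP libraries were 1.20, 0.549, 1.23 and 1.21 times the size of the control library. Replicate 2 of pre-adipocytes was thus the shallowest sample, and each result that rests on it is given below with and without it where they differ.

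Of the sequence in the domains, only promoter windows were examined, which make up a small part of their length. RefSeq windows of 300 bases around transcription starts (GRCm38.p6, the same assembly as mm10) were used, and 4 genes were chosen for printing after their values were seen. Sorbs2, an adaptor protein of the actin cytoskeleton, lies in the longest domain, and its first window on the forward strand (chr8:45507538-45507837) was wholly called in all 4 samples. So was that of Cxcl15, a chemokine gene on the forward strand in the domain with the most genes (chr5:90794284-90794583). The windows of Lep, the gene of the fat hormone leptin (chr6:29059971-29060270, forward strand), and Krt7, a keratin of simple epithelia (chr15:101412153-101412452, forward strand), lie in domains too but were called in replicate 1 of pre-adipocytes and not touched in the other 3 samples. Capitals mark each CG, the dinucleotide at which mammalian DNA is methylated.
Sorbs2: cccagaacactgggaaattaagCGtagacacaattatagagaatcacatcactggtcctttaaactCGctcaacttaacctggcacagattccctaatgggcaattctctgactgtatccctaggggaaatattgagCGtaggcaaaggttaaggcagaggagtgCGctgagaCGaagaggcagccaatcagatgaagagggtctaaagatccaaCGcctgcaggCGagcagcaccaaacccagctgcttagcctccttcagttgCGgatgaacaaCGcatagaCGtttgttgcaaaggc
Cxcl15: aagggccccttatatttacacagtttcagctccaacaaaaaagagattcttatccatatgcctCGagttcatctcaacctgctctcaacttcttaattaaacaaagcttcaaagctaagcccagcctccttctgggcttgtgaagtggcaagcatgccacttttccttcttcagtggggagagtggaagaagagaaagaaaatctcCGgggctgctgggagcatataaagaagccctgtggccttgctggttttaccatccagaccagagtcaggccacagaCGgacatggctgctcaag
Lep: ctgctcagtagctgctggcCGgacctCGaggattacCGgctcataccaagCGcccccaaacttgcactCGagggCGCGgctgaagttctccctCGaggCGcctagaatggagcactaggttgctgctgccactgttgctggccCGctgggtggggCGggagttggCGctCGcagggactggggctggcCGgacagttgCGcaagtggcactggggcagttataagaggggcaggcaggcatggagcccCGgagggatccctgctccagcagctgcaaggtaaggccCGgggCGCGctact
Krt7: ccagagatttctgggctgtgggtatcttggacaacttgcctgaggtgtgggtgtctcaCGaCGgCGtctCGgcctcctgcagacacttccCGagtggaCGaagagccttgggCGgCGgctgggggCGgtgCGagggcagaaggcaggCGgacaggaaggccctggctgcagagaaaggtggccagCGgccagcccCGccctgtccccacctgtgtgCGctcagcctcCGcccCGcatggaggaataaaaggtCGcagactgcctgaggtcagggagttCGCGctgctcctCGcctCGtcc
The called pair held 10 CG (Sorbs2) and 3 CG (Cxcl15), with GC contents of 49.0% and 47.7%. Lep and Krt7 held 19 and 21 CG, with GC contents of 66.0% and 66.3%.

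The same contrast was visible over all promoters. Of 31365 autosomal windows, 1001 (824 gene symbols) lay wholly inside a domain, and their median CG count was 4 against 7 over all windows. At least 20 CG were found in 5.59% of the windows in domains, in 6.94% of the 4005 windows in other called regions, and in 30.9% of the 26359 windows outside called regions. Promoters poor in CG were thus found in called regions in general, not in the domains alone. Inside the domains, the 56 windows with at least 20 CG were wholly called in 60.7%, 12.5%, 48.2% and 48.2% of cases, and the 676 windows with under 6 CG in 80.9%, 43.3%, 76.2% and 70.0%. In each of the 4 samples the share was lower for the CG-rich windows, a difference that was not tested. Only 2 of the 228 windows in a domain and in a called interval of all 4 samples held at least 20 CG (0.877%). The letters TATAAA, searched on both strands, were in 17% of windows in domains, 16.6% of those in other called regions and 13.6% of all windows. AGATAA, which can share letters with TATAAA and holds the GATA core, was in 17.3%, 13.3% and 11.2%. CCAAT, the remaining motif searched, was in 35.9%, 37.3% and 37.3%, and so was not more frequent in domains. The median GC content of these windows was 48.0%, 49.0% and 53.0%, and its part in the motif shares was not tested. A match is a description of the letters and not a bound site.

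Domain lengths ran from 30 to 354.8 kb, with a median of 41.6 kb and quartiles of 34.6 and 56.4 kb, whereas the median of the other autosomal regions was 4.4 kb. A length of at least 50 kb was reached by 650 domains, at least 100 kb by 93 and at least 200 kb by 4. The threshold divided a continuous range: 28 domains were exactly 30 kb long and 17 regions of 29.8 kb fell just under it. The 3 named just inside, all on chromosome 1, were covered to 34.0%, 42.0% and 72.7% in replicate 1 of pre-adipocytes. The 3 named just outside, on chromosomes 6 and 8, were covered to 59.1%, 94.0% and 77.9% in the same sample.

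A domain was mostly a joint call. All 4 samples called a part of 1930 domains (97.6%), 3 samples of 40 and 2 samples of 7, while 18.1% of the other autosomal regions were called in all 4. The merging itself favours this, since a long region is built from many intervals. Single called intervals of at least 30 kb numbered 557, 4, 332 and 273 on autosomes, and the longest ones measured 117.8, 33.8, 97.0 and 111.0 kb. In 706 domains at least 1 sample had such an interval, and in 4 domains all samples had one.

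The samples covered 83.7%, 46.6%, 81.3% and 79.5% of the summed length of the domains. The shallow replicate 2 of pre-adipocytes stood apart, and replicate 1 of pre-adipocytes was above both mature samples. Pre-adipocytes averaged 65.2% ± 26.2 (SD, n = 2) while the mature samples averaged 80.4% ± 1.27 (SD, n = 2), 15.2 percentage points more, which was less than the SD of the pre-adipocytes (exact permutation test, two-sided, p = 1.0; 2 samples against 2 cannot go below 0.333). Without replicate 2 of pre-adipocytes, but over the same domains, the difference turned to -3.34. The intervals behind the covered share also built the domains, so this test is not free of the selection and decides nothing about extent. Merging without replicate 1 of pre-adipocytes gave 1151 domains. At least 90% of the length was covered in 834, 9, 547 and 470 domains, and a domain was split into a median of 3, 4, 4 and 4 called intervals.

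**Figure D1:**
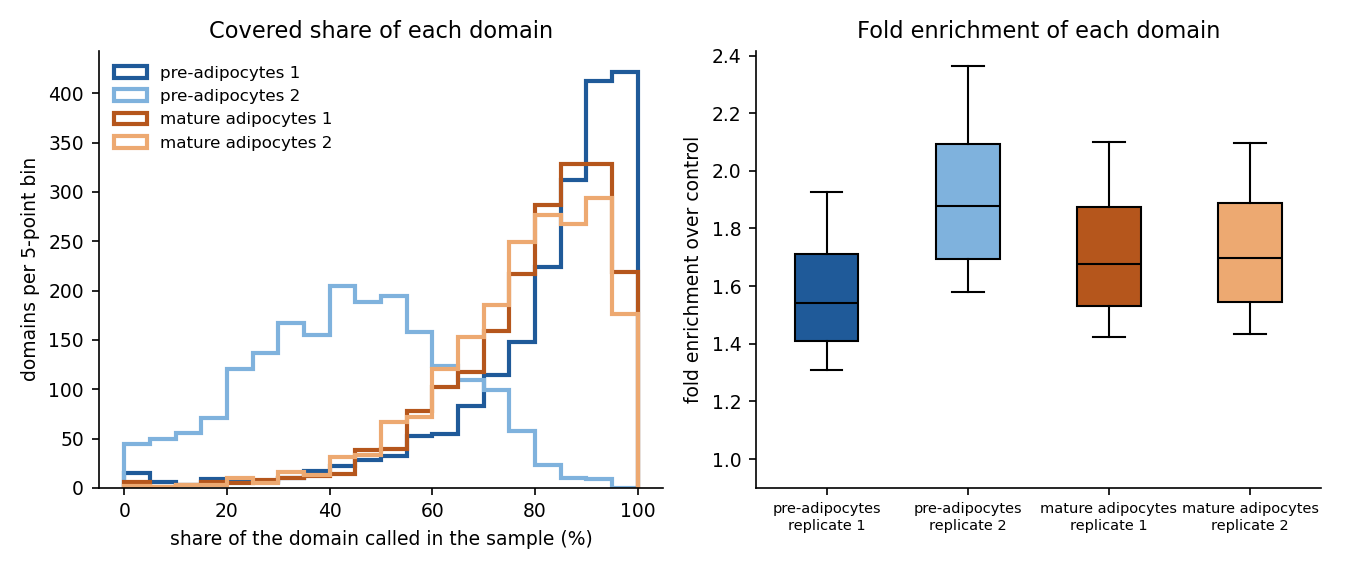
The left panel counts domains by the share of their length called in a sample (%, bins of 5 percentage points). The right panel shows the fold enrichment of the called parts over the control (ratio scaled by library size; box, quartiles and median; whiskers, 10th and 90th percentiles). Replicate 2 of pre-adipocytes has a median covered share of 44.5% against 87.7%, 83.5% and 80.4% in the others, and the highest fold enrichment.

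Depth moved with these values. The domains held 3210469, 988076, 3479206 and 3377479 ChIP reads, or a median of 1302, 394, 1413 and 1367 per domain. In the called parts there were 38.5, 21.3, 43.0 and 42.7 ChIP reads per kb and 20.7, 21.1, 20.8 and 20.9 control reads per kb. Scaled by library size, the fold enrichment over control of all domains together was 1.55, 1.83, 1.68 and 1.69. Pre-adipocytes averaged 1.69 ± 0.200 (SD, n = 2) while the mature samples averaged 1.69 ± 0.00823 (SD, n = 2), with a difference of -0.00648 (exact permutation test, p = 1.0). Both pre-adipocyte replicates lay on either side of both mature samples. Over the same domains, the difference was 0.135 without replicate 2 of pre-adipocytes and -0.148 without replicate 1.

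The median scaled tag density, log2 of ChIP reads per 100 bp of called length over the library ratio, was 1.63, 1.93, 1.76 and 1.77. The mature minus pre-adipocyte difference was -0.013 on the log2 scale (exact permutation test, p = 1.0), far smaller than the SD of 0.212 between the pre-adipocyte replicates. Without the scaling the medians were 1.89, 1.06, 2.05 and 2.04 and the difference turned to 0.57, and with scaling by the total of ChIP reads in called regions it was -0.537 (exact permutation test, p = 0.333 for both). In all 4 samples the domains were less enriched over control than the other autosomal regions, whose fold enrichment was 1.60, 1.97, 1.75 and 1.77, and held more control reads per kb (17.7, 18.5, 17.7 and 17.8 in the others). The part of region length in this difference was not tested.

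Longer domains were more fully covered. Length and covered share both come from the same called intervals, so this relation is a description and was not tested. The 876 domains from 30 to 40 kb were covered to 79.2%, 39.9%, 75.8% and 73.7%, and the 93 of at least 100 kb to 90.7%, 57.9%, 89.5% and 88.2%. The fold enrichment was nearly level over the same classes, at 1.55, 1.88, 1.69 and 1.70 in the shortest and 1.54, 1.77, 1.64 and 1.65 in the longest. Control reads per kb were 19.7, 20.1, 19.9 and 19.9 in the shortest class and 22.6, 22.8, 22.8 and 22.9 in the longest.

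The longest domain, 354.8 kb on chromosome 8 (45501201 to 45856000, mm10), contained the whole of Sorbs2 (ENSMUSG00000031626.17, 45507788 to 45827906, forward strand). It held 11658, 3152, 16460 and 16436 ChIP reads against 7748, 3768, 9835 and 9891 control reads, a fold enrichment of 1.25, 1.52, 1.36 and 1.38. The samples called 72.5%, 36.1%, 93.1% and 93.7% of it, so both mature samples covered more of it than both pre-adipocyte samples. Within the called parts the read density did not differ detectably (log2 fold change -0.00, SE 0.058, adjusted p = 0.998, edgeR).

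Among the 10 longest domains, 5 held no protein-coding gene, at 249.0 kb on chromosome 16, 214.0 and 186.0 kb on chromosome 8, 184.8 kb on chromosome 11 and 184.0 kb on chromosome 2. The midpoint of the last 2 lay 673 and 381 kb from the nearest transcription start. The third longest, 243.4 kb on chromosome 2 (43924601 to 44168000), lay inside Arhgap15, a GTPase-activating protein for Rac. It was covered to 85.6%, 52.8%, 96.5% and 95.5%, and its fold enrichment of 1.43, 1.72, 1.77 and 1.81 gave a log2 fold change of 0.21 (SE 0.058, adjusted p = 0.161, edgeR), short of the threshold.

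On chromosome 16, 2 of the 10 longest domains lay close together, 189.4 kb over most of Trp63 (25728801 to 25918200), the gene of the stratified-epithelium regulator p63, and 177.0 kb over most of Tprg (25330001 to 25507000). The Trp63 domain was covered to 98.9%, 58.6%, 88.0% and 91.9%, with 8516, 2725, 7844 and 8016 ChIP reads and a fold enrichment of 1.30, 1.52, 1.31 and 1.31. The tenth longest, 170.4 kb on chromosome 6 (17103801 to 17274200), only touched the end of Tes, which encodes the focal adhesion protein testin. Across the 10, log2 fold changes ran from -0.12 to 0.21, and none passed the adjusted threshold (edgeR).

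**Figure D2:**
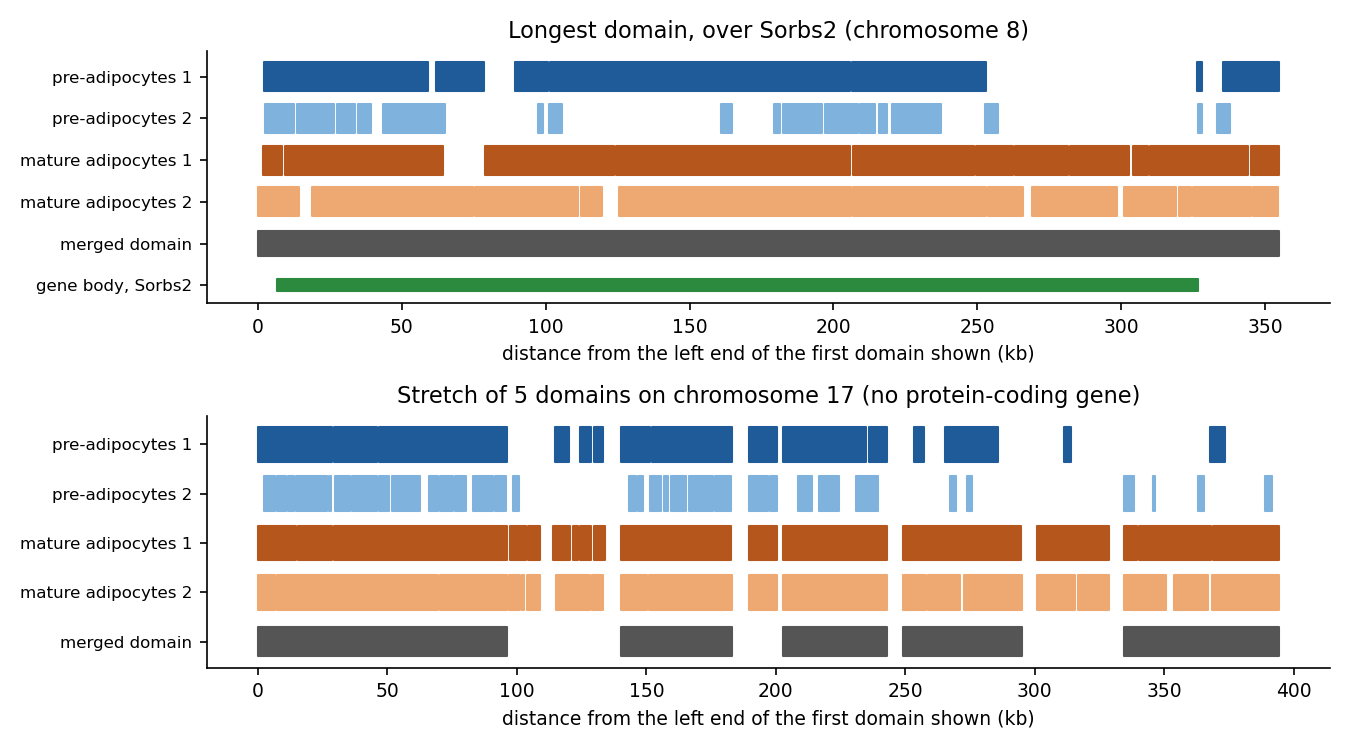
Called intervals of each sample (coloured bars) against distance in kb from the left end of the first domain shown, with merged domains in grey and the Sorbs2 gene body in green. The lower panel also shows shorter called regions between the 5 domains. The Sorbs2 domain is covered to 72.5% and 36.1% in pre-adipocytes and to 93.1% and 93.7% in mature adipocytes. On chromosome 17 the pre-adipocyte intervals thin out towards the right, where 9.7% and 16.1% of the last domain are called in pre-adipocytes and 97.0% and 92.6% in mature adipocytes.

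To ask whether single domains differed between pre-adipocytes and mature adipocytes, the 12857 merged regions that every sample called were fitted by their ChIP counts in edgeR's quasi-likelihood test, with called length as offset. Of the domains, 1930 could be tested and 47 could not. Only 6 had a higher read density per called length in mature adipocytes at an adjusted p under 0.05 (0.311% of those tested; background over all regions 0.0778%, or 10 of 12857), and 0 were lower (background 0.00778%, or 1 of 12857). At an unadjusted p under 0.05 there were 172 domains higher and 106 lower with edgeR (14.4% of the domains tested, against 9.15% of all regions, 605 higher and 571 lower). With DESeq2 there were 70 and 24 (4.87%, against 1.69% of all regions, 139 and 78). DESeq2 also called 6 domains higher and 0 lower after adjustment, 3 of the 6 higher ones being the same. The median log2 fold change of the domains was 0.005, against -0.001 over all regions, and 99.9% lay between -0.5 and 0.5. Domains hold more reads than other regions, and the median SE was 0.069 for them and 0.122 over all.

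The count of 6 depended on single libraries. Without replicate 1 of pre-adipocytes 67 domains were higher and 5 lower, with 3 of the 6 among them. Without replicate 2 of pre-adipocytes 65 were higher and 88 lower, with all 6 among them, and without replicate 1 or 2 of mature adipocytes 2 and 1 were higher. Each of these fits leaves a condition with 1 sample, which is assumed to vary like the others. With libraries scaled by their size relative to the control, 0 domains passed in either direction (7 higher and 0 lower at an unadjusted p under 0.05, edgeR), and the median SE was 0.168. Without the length offset 3 domains were higher, none of them among the 6.

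All 6 domains lay outside protein-coding genes, and 4 of them within 394.2 kb of each other on chromosome 17. The smallest adjusted p belonged to a domain of 40.0 kb (82484001 to 82524000), with 1437, 388, 2283 and 2313 ChIP reads against 857, 430, 878 and 878 control reads. Its fold enrichment was 1.40 and 1.64 in pre-adipocytes and 2.12 and 2.18 in mature adipocytes, with no overlap between conditions (log2 fold change 0.55, SE 0.067, adjusted p = 7.51e-06, edgeR).

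The domain of 96.2 kb to its left (82281201 to 82377400) was almost fully called in 3 samples (98.1%, 80.2%, 98.3% and 98.1%) and had 3925, 1701, 5397 and 5426 ChIP reads. Its fold enrichment was 1.48, 1.68, 1.98 and 2.03 (log2 fold change 0.35, SE 0.059, adjusted p = 0.00511, edgeR). On the right, 46.2 kb (82530201 to 82576400) held 864, 86, 2409 and 2326 ChIP reads and 59.8 kb (82615601 to 82675400) held 159, 215, 3036 and 3037. Called length differed as well: 52.8%, 8.66%, 98.7% and 94.8% of the first were covered, and 9.7%, 16.1%, 97.0% and 92.6% of the second. Per called length their log2 fold changes were 0.41 (SE 0.075) and 0.53 (SE 0.099), both with an adjusted p of 0.0131 (edgeR). These compare the density of different stretches in each sample, not the same bases, and do not give a change over the whole domain.

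The fifth, 39.4 kb on chromosome 16 (77978401 to 78017800), was covered to 60.9%, 7.61%, 100.0% and 98.0% and had a fold enrichment of 1.37, 2.00, 1.88 and 1.95. Replicate 2 of pre-adipocytes, with 77 ChIP reads in its called stretch, lay above both mature samples on that scale, although the fit called the domain higher in mature adipocytes (log2 fold change 0.40, SE 0.081, adjusted p = 0.0286, edgeR). The sixth, 44.6 kb on the same chromosome (58071201 to 58115800), is outside the rule for naming and is given to complete the count. It was covered to 85.7%, 70.9%, 96.0% and 94.2%, with a fold enrichment of 1.45, 1.71, 1.92 and 1.93 (log2 fold change 0.30, SE 0.063, adjusted p = 0.0352, edgeR).

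**Figure D3:**
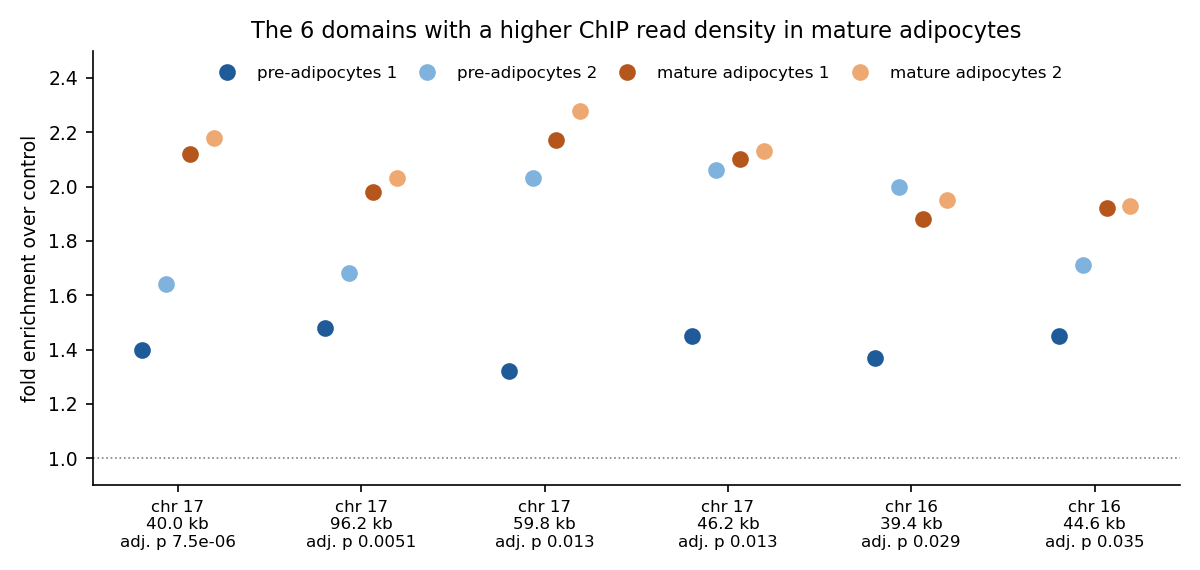
Fold enrichment over control (ratio scaled by library size) of the 6 domains called higher in mature adipocytes, 1 point per sample, with the adjusted p of edgeR under each; the dotted line marks 1. Both mature samples lie above both pre-adipocyte samples in 5 of the 6, and in the domain of 39.4 kb on chromosome 16 replicate 2 of pre-adipocytes is at 2.00.

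Extent was compared separately from density. Both mature samples covered more of a domain than both pre-adipocyte samples in 560 of 1977 domains (28.3%; background 21.6% of all merged regions), and less in 42 (2.12%; background 4.27%). The shallow replicate 2 of pre-adipocytes was the lowest of the 4 in 1772 domains (89.6%), and the median gap between the pre-adipocyte replicates was 38.1 percentage points against 6.73 between the mature ones. Set against replicate 1 of pre-adipocytes alone, both mature samples were above it in 565 domains and below it in 1009. The direction of the majority thus turned with the replicate used. The calls compared here also chose the domains, so these counts are a description and were not tested.

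The domains with the largest differences in extent lay on chromosomes 17, 8, 2, 6 and 1. On chromosome 17, 30.8 kb (81293801 to 81324600) were not called in either pre-adipocyte sample and covered to 90.9% and 99.4% in mature adipocytes, with 1179 and 1214 ChIP reads. Its neighbour of 43.6 kb (81246001 to 81289600) was likewise not called in pre-adipocytes and was covered to 98.2% and 91.7%. On chromosome 8, 36.0 kb (40648801 to 40684800) over Adam24, a metalloprotease-family gene of the testis, were covered to 0.0%, 6.11%, 97.8% and 94.4%. These domains were not in the fit, which needed a call in every sample, and an uncalled stretch has no count in the tables.

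In the opposite direction, 32.2 kb within Scn3a, a voltage-gated sodium channel gene on chromosome 2 (65476401 to 65508600), were covered to 93.8%, 65.8%, 16.8% and 6.21%, with 1102, 417, 202 and 93 ChIP reads. The density of the parts still called gave a log2 fold change of 0.01 (adjusted p = 0.992, edgeR). A domain of 30.4 kb over most of Ppp1r3a, a glycogen-targeting subunit of protein phosphatase 1, on chromosome 6 (14719201 to 14749600) was covered to 100.0% and 20.4% in pre-adipocytes and not called in mature adipocytes. It was the only domain without a call in either mature sample (0.0506%, against 13.7% of the other autosomal regions), while 6 had none in either pre-adipocyte sample (0.303%, against 43.6%). The lean towards calls in mature adipocytes was thus shared by the regions in general. On chromosome 1, 36.4 kb without a protein-coding gene (43232601 to 43269000) were covered to 100.0%, 63.2%, 27.5% and 24.2%.

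Fold enrichment spanned a wide range among the domains. The highest fold enrichment was in 30.4 kb without a gene on chromosome 15 (78723001 to 78753400), at 2.83, 2.93, 3.04 and 3.15. Near it, 62.8 kb over parts of Cyth4 and Elfn2 (78610201 to 78673000) had 2.58, 3.18, 3.17 and 2.89, and 30.2 kb over the start of the receptor gene Notch1 on chromosome 2 (26509401 to 26539600) had 2.31, 3.57, 3.58 and 2.18. The Notch1 values in the middle rest on 231 and 180 ChIP reads. The lowest was in 65.2 kb without a gene on chromosome 13 (12877401 to 12942600), at 1.20, 1.27, 1.21 and 1.18, where the control held 2652 reads in the part called in replicate 1 of pre-adipocytes. Low values were also found in 45.0 kb over the start of Dlc1 on chromosome 8 (1.24, 1.40, 1.19 and 1.12), and in 42.4 kb without a gene on the same chromosome (8024201 to 8066600; 1.19, 1.40, 1.19 and 1.30).

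The domains were unevenly spread over the chromosomes. Chromosomes 2, 15, 8 and 16 held 297, 244, 241 and 177 of them, together 959 (48.5%), and chromosome 7 held 0 among its 1255 merged regions. They took up 12.6% of chromosome 15, 10.9% of chromosome 8, 10.7% of chromosome 16 and 8.51% of chromosome 2, but 0.413% of chromosome 4. Of the 18 chromosomes with domains, chromosome 8 was the single one on which both mature samples covered more than both pre-adipocyte samples, at 79.2%, 40.2%, 85.2% and 83.6%, whereas on chromosome 15 the shares were 87.9%, 52.4%, 84.0% and 82.8%.

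**Figure D4:**
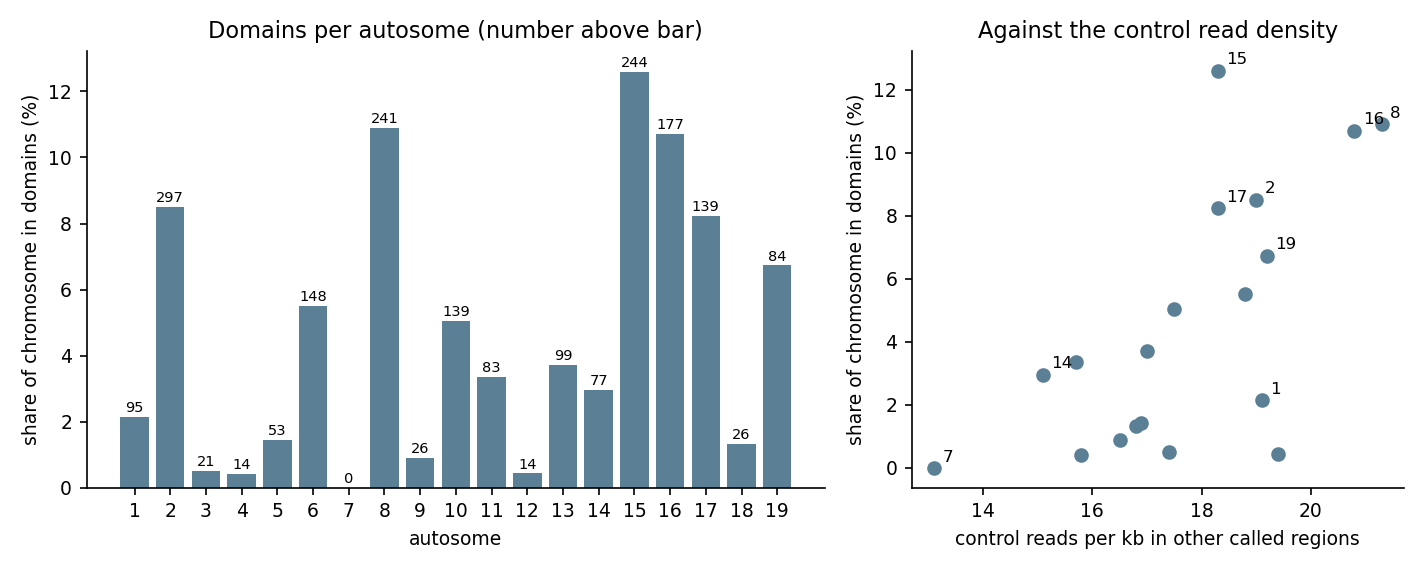
Left, share of each autosome's span (%) in domains, with the number of domains above each bar. Right, the same share against the control reads per kb in the other called regions (mean over the 4 samples), 1 point per autosome. Chromosome 7 is lowest on both axes, at 0 domains and 13.1 control reads per kb.

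The control library moved with this distribution. Its reads per kb in the other called regions, averaged over the 4 samples, ran from 13.1 on chromosome 7 to 21.3 on chromosome 8, with 20.8 on chromosome 16. Across the 19 autosomes the share in domains went with this density at a Pearson r of 0.65 and a Spearman coefficient of 0.59, and r was 0.54 without the 2 chromosomes farthest from the median. The points share 1 control library, so this is a description and its part in the spread of domains was not tested.

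Domains also came in runs. The median gap between neighbours was 85.2 kb, and 1037 of the 1959 gaps (52.9%) were at most 100 kb. Joining across such gaps gave 940 groups, of which 403 held at least 2 domains and 1440 domains in all, while 537 domains stood alone. The run around Trp63 and Tprg on chromosome 16 (25025601 to 26579000) had 17 domains with 1296 kb of its 1553 kb inside them. It was covered to 96.3%, 65.2%, 88.4% and 92.5%, and its log2 fold changes ran from -0.10 to 0.21 (17 tested).

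The run of 15 domains on chromosome 17 (81722801 to 82884800) contained the 4 domains called above. Its domains were covered to 76.4%, 55.9%, 98.3% and 96.2%, with a fold enrichment of 1.52, 1.76, 1.88 and 1.91, and both conditions were separate on both scales. Among its domains, those of 46.2 and 59.8 kb reached 30 kb only through calls of the mature samples. A higher covered share in mature adipocytes was thus built into their choice. Of its 15 domains 14 had a log2 fold change above 0, with a median of 0.26, while the median was -0.01 to 0.09 in the 4 other longest runs, on chromosomes 16, 15 and 8. Neighbouring domains are not independent, the 4 called domains are counted among the 15, and the run as a whole was not tested.

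Protein-coding genes took up 24.3% of the bases of the domains and 29.8% of those of the other autosomal regions, and exons 1.28% and 2.03%. Protein-coding genes were absent from 1276 domains (64.5%, against 64.0% of the other autosomal regions), 655 of which overlapped no annotated gene of any kind in GENCODE M21, and 322 domains lay within 1 gene. A transcription start of a protein-coding gene was found in 258 domains (13.1%, against 3.33% of the much shorter other regions), giving 316 starts or 3.17 per Mb, against 5.7 per Mb in the other regions. The median distance from a domain's midpoint to the nearest start was 96.5 kb, against 52.9 kb, and a domain is long enough by itself to hold its midpoint away from a start.

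Within each sample, 23.5%, 21.4%, 23.6% and 23.7% of the bases called inside domains lay in protein-coding genes, against 27.5%, 26.6%, 28.0% and 28.0% of those called outside. The difference was -4.51 ± 0.514 percentage points (SD, n = 4) and negative in 4 of 4 samples (exact permutation test by sign flips, two-sided, p = 0.125, the smallest that 4 samples allow). The same domains and gene bodies were used for each sample, so the 4 differences were not independent. The test therefore cannot decide whether domains hold fewer gene bases. The direction of the difference turned when only regions with a fold enrichment of at least 2 were merged: the 173 domains that were left then had a difference of 9.63 percentage points.

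**Figure D5:**
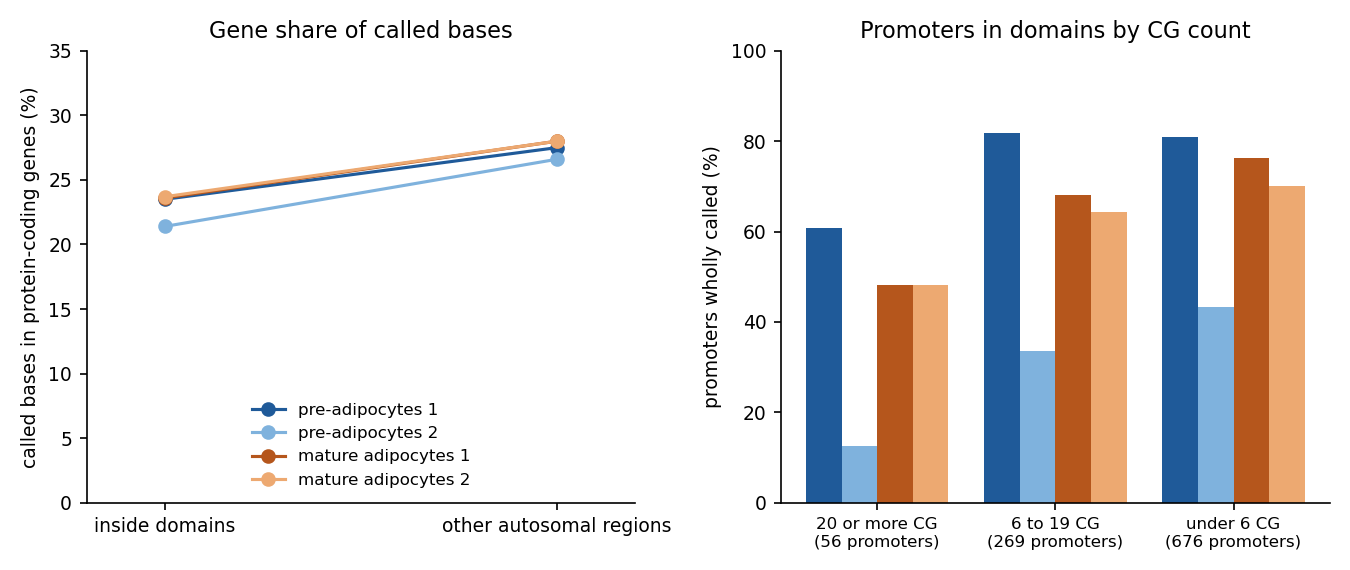
Left, share of called bases in protein-coding genes (%) inside domains and in the other autosomal regions, 1 line per sample. Right, share of promoter windows inside domains that were wholly called (%), by CG count and sample, in the same colours. The share inside is 21.4% to 23.7% and outside 26.6% to 28.0%, and windows with 20 or more CG have the lowest bars in each sample.

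Of 20780 autosomal protein-coding gene symbols of this annotation, 595 (2.86%) overlapped a domain, 121 of them over their whole length. The genes with the most bases in domains, ranked after the values were seen, were long ones. Lrmda, a gene of melanocyte differentiation, had 571 kb in 11 domains, Dlgap2, a postsynaptic scaffold gene, 484 kb in 9, and Nrg1 (ENSMUSG00000062991.7), which encodes the ErbB receptor ligand neuregulin, 470 kb in 12. Macrod2, whose product removes ADP-ribose through a macro domain of its own, had 453 kb in 8. The parts of Nrg1 in domains were called to 81.3%, 46.3%, 84.5% and 87.1%, and those of Dgki, a diacylglycerol kinase gene with 84.3% of its length in domains, to 93.2%, 65.1%, 92.5% and 85.4%.

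The lists of gene families were read against the share of all genes. Keratins and keratin-associated proteins, the filament proteins of epithelia and hair, had 21 of 110 genes in 9 domains on chromosomes 11 and 15 (19.1%, against 2.86% of all genes). Krt7 (ENSMUSG00000023039.17, chromosome 15 from 101411043 to 101430313), Krt79, Krt77, Krt90 and Krt75 lay wholly inside domains. Krt90 was called over 100.0%, 0.0%, 82.6% and 77.3% of its body and Krt75 over 61.1%, 24.6%, 100.0% and 100.0%. Of the Hox genes, which set position along the body axis, 7 of 39 overlapped 4 domains (17.9%), 5 of them Hoxc genes. The domain over Hoxc5, Hoxc6, Hoxc8 and Hoxc9 (chromosome 15 from 102977001 to 103014800) was covered to 85.7%, 55.6%, 97.9% and 92.1% and had a fold enrichment of 1.96, 2.61, 2.04 and 2.08 (log2 fold change -0.14, SE 0.066, adjusted p = 0.536, edgeR). Clustered genes share a domain and do not count as independent. Gene length and chromosome were not taken into account in the share of any list. Chromosome 15, with the Hoxc genes and many of these keratins, had the highest share of its span in domains (12.6%).

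The domain with the most protein-coding genes, 50.8 kb on chromosome 5 (90761601 to 90812400), held Cxcl3, Ppbp, Pf4 and Cxcl15, all chemokine genes, and touched Cxcl5. It was covered to 96.1%, 60.6%, 56.3% and 50.8%, so both pre-adipocyte samples covered more of it than both mature samples. Replicate 1 of pre-adipocytes stood far above the other 3. Per called length its fold enrichment was 1.44, 1.80, 1.53 and 1.59 (log2 fold change -0.04, adjusted p = 0.896, edgeR).

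Collagens, a family of matrix proteins, had 6 of 43 genes in domains (14.0%). Col1a1, Col1a2 and Col3a1, named in the list of fibroblast genes, were not among them. Col14a1 lay in them over 96.2% of its length and was called there to 92.9%, 73.2%, 96.3% and 93.4%. Col8a1 had 51.6 kb in 1 domain, called to 70.9%, 0.0%, 95% and 93%. Potassium and sodium channels had 10 of 110 genes in domains (9.09%), glutamate and GABA receptors 3 of 37 (8.11%), and cadherins and protocadherins 4 of 71 (5.63%). Cdh3, the gene of P-cadherin, was inside domains over 97.8% of its length and called there to 90.3%, 42.5%, 78.9% and 68.0%.

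Serpins had 2 of 60 genes in domains (3.33%) and cytochrome P450 genes 2 of 100 (2.00%), both near the 2.86% of all genes. Zinc finger proteins had 2 of 385 (0.519%) and olfactory receptors 3 of 1127 (0.266%). Vomeronasal receptors (0 of 328), histones (0 of 80), killer and C-type lectins (0 of 56) and Wnt ligands (0 of 19) had none. The part of gene length and of the dropped multiply mapping reads in these low shares was not tested. The paper picked 20 genes from a larger adipogenesis array by their change on a high-fat diet. None of the 20 overlapped a domain, and 8 of them overlapped a shorter called region only. In Ucp1, Cdkn1a, Fasn and Slc2a4 the paper reports enriched regions, which were inconsistent between its duplicates. At 2.86% of all genes in domains, 0 of 20 is near the background, and 5879 of all 20780 genes overlapped shorter regions only.

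Adipocyte genes were represented by 3 of 20 (Lpl through replicate 2 of mature adipocytes alone), against 2.86% of all genes. Lep (ENSMUSG00000059201.12, chromosome 6 from 29060220 to 29073877) lay wholly in a domain of 65.0 kb (29021601 to 29086600). This domain had 2302, 750, 1763 and 1550 ChIP reads, was covered to 95.1%, 60.6%, 74.2% and 65.8% and had a fold enrichment of 1.80, 1.92, 1.69 and 1.66. Its log2 fold change was -0.13 (SE 0.064, adjusted p = 0.52, edgeR), so no difference in density was detected. The body of Lep was called over 94.1%, 61.5%, 75.2% and 76.7%, while its CG-rich promoter window, printed above, was free of calls in 3 samples.

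Cd36, the gene of a fatty acid transporter, had 8.32% of its body in a domain of 54.4 kb on chromosome 5 (17736201 to 17790600), covered to 45.6%, 52.9%, 71.3% and 83.8%. The part of Cd36 inside it was called to 0.0%, 33.7%, 34.9% and 100.0%. Both mature samples covered more of the domain than both pre-adipocyte samples, with a log2 fold change of -0.08 in the called parts (adjusted p = 0.781, edgeR). Lpl, which encodes lipoprotein lipase, was touched over 0.51 kb at its start by a domain of 43.4 kb on chromosome 8 (68837601 to 68881000). The domain was covered to 61.8%, 5.53%, 85.7% and 85.7%. The touched stretch of Lpl was itself called to 0.0%, 0.0%, 0.0% and 100.0%, so it rests on replicate 2 of mature adipocytes alone. Of the 18 pre-adipocyte and fibroblast genes, 2 overlapped a domain, Zfp423 and Ebf2, both transcription factors of the adipocyte lineage. The domain within Zfp423 (31.2 kb, chromosome 8 from 87907201 to 87938400) was covered to 82.1%, 16%, 57.7% and 75%, and the one at the end of Ebf2 (30.2 kb, chromosome 14 from 67427801 to 67458000) to 63.6%, 30.5%, 80.8% and 93.4%. In neither did the density differ detectably (adjusted p = 0.876 and 0.844, edgeR).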

How the data were processed

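Regions bound by macroH2A1.2-GFP were analysed in 4 anti-GFP samples of 3T3-L1 cells. Single reads were mapped by the authors to mm10 using Bowtie (1.1.2 in the submitters' processing notes), multiply mapping and duplicate reads were dropped (Picard), and regions were called per sample by SICER (1.1) against the no-antibody library. The deposited tables hold, per region, raw counts of ChIP and of control reads. The deposited fold enrichment is a ratio of both counts scaled by the authors with the library sizes. The deposited p-value and its FDR, at most 0.001 in the tables, compare the ChIP with the scaled control count. Total library sizes, reads and coverage were not analysed here, so the size of each library relative to the control came from the factor inside the fold enrichment.

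Regions lie on 200-bp windows and are printed 1-based. Merged regions were annotated with GENCODE M21 and RefSeq promoter windows, both on the same assembly. Covered share is the called length of a domain over its whole length. ChIP counts of merged regions called in all 4 samples were tested with edgeR 4.0.16 (R 4.3.3), with TMM normalization of counts per called length, an offset of log called length and Benjamini-Hochberg adjustment over all regions, and with DESeq2 1.42.0 as an alternative. The fitting script was tested on simulated counts. Exact permutation tests compared the values of the samples (numpy 2.4.6). The median domain held 394 to 1413 ChIP reads per sample. The fit compares read density within the intervals each sample called, which differ between samples.

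The members and gene lists were chosen with earlier results of these data known. Domains named were the 10 longest, the 5 of lowest adjusted p under 0.05 in either direction, the 3 with the largest rise and fall in covered share, the 3 with the most genes, the 3 on each side of the length limit, and the 3 with the highest and lowest fold enrichment. One domain that this rule names is not reported here. Genes named were those overlapping a named domain (at most 5 each) and list members overlapping a domain (at most 5 per list). The genes ranked by bases in domains were chosen after their values were seen. The replicate numbers did not pair the samples. Alternatives covered the FDR, the fold enrichment, the length limit, the merging distance, single replicates, normalizations and gene extents.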

Additional observations from a re-analysis of the deposited data

Results flagged for a closer look

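The rule of autosomes left out 1 region of at least 30 kb, on chromosome X, which is data outside the comparisons above. It spanned 32.2 kb (11752201 to 11784400, mm10) and was covered to 74.5%, 50.3%, 40.4% and 48.4% in pre-adipocyte replicates 1 and 2 and mature adipocyte replicates 1 and 2. In the same order it held 769, 279, 426 and 567 ChIP reads against 293, 207, 162 and 177 control reads, a fold enrichment over control of 2.18, 2.46, 2.14 and 2.66, or 2.36 on average over the 4 samples. It was the single region of this length among 985 merged regions on chromosome X.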

How the results depend on the processing

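With regions of a fold enrichment of at least 2 there were 173 domains, with a length limit of 20 kb 4252 and of 50 kb 650, and with 1 replicate left out 1151 to 1833. An FDR of at most 1e-05 and a merging distance of 600 bp gave 1808 and 2434. The difference in covered share ran from -3.34 to 33.7 percentage points when a replicate was left out, that in scaled tag density from -0.163 to 0.137 (0.57 without scaling, -0.537 with scaling by the total of ChIP reads in called regions), and that in fold enrichment from -0.148 to 0.135. When a replicate was left out, these 3 differences were still taken over the domains merged from all 4 samples. The number of domains, by contrast, came from a new merge without it. All 3 differences turned sign without replicate 2 of pre-adipocytes. Apart from the density without scaling, their other alternatives kept the sign. Domains higher in mature adipocytes numbered 1 with an FDR of at most 1e-05, 0 with a fold enrichment of at least 2, 2 with a limit of 50 kb, 0 with the library size relative to control, 26 with at least 100 reads in every sample, 3 without the length offset, none of them among the 6, and 1 to 67 with a replicate left out. Domains lower numbered 1 with a limit of 20 kb, 7 with at least 100 reads and 0 to 88 with a replicate left out. With the replicate block 11 domains were higher, including all 6, and 2 were lower, but same-numbered samples had deviations correlated at only 0.0078, so the numbers showed no pairing. The gene share difference was 9.63 with a fold enrichment of at least 2 and negative in the other 11 alternatives, among them the removal of predicted genes (-4.83), chosen after seeing the data. The cause of these shifts was not tested. The tables stop at an FDR of 0.001, so that binding below it could not be seen, and replicate 2 of pre-adipocytes limits what could be called in that condition.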
